A study of Rattus norvegicus with 16 samples.

Results

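Healthy rat knee cartilage was described from its 4 bulk RNA libraries, out of 16 in the study, as the baseline against which the other groups were set. The 4 libraries were taken by their sample labels and not by a measured value. Earlier results of these data were known when they and the gene lists were chosen. The animals were 10 weeks old and carried no treatment by their titles, but the library names call the group Sham, so some handling of the joint cannot be told apart from none. No strain, genotype or sex is given, and whether the 4 replicates were separate animals, pools or repeat samples is not labelled, so every SD below may be partly technical. Polyadenylated RNA was selected from total RNA, and the deposited table gives for each of 23552 genes a count and an FPKM value (fragments scaled to gene length and to sequencing depth) in each library. The groups of the study were not compared here. Libraries of the other groups are quoted for a few genes that were high in 1 healthy library.

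Articular cartilage is a tissue without blood vessels in which sparse chondrocytes sit in a matrix of type II collagen and the proteoglycan aggrecan. It rests on calcified cartilage and subchondral bone, whose spaces hold blood-forming marrow, so RNA taken from a small joint may come from several neighbouring tissues. Type I collagen and osteocalcin mark bone, haemoglobin marks red cells and their precursors, and S100 proteins, defensins and granule enzymes mark granulocytes of the marrow.

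The upstream bases of several abundant or marker genes are shown first, with and without a match, because a short core promoter motif was found in a larger share of the most abundant genes than of all detected genes. The motif searched was TATAAA, the core of the TATA box, on the gene's own strand in the 250 bases before the start site. It was found in 11 of the 38 promoters available for the 50 most abundant nuclear genes (28.9%), in 48 of 359 for the 500 most abundant (13.4%) and in 414 of 9479 for all detected genes (4.37%). Counting both strands, the shares were 31.6%, 17.5% and 6.68%. In the last 50 bases before the start they were 26.3%, 10.0% and 1.64%. Each line below gives the 60 bases just before the start site, 5′ to 3′ on the gene's strand, from RefSeq on build GRCr8, with TATAAA in capitals. The first pair are alpha globin genes at chr10:15842581-15842640 (minus strand) and chr10:15829139-15829198 (minus strand).
Hba-a1: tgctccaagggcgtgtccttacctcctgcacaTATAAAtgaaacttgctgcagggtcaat
Hba-a2: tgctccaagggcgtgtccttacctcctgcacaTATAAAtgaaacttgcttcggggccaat
S100a9, a granulocyte protein, lies at chr2:178490623-178490682 (minus strand), and Acta1, the actin of skeletal muscle, at chr19:68784195-68784254 (minus strand).
S100a9: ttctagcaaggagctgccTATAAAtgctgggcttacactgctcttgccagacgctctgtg
Acta1: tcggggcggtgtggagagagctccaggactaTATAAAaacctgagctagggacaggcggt
Mmp13 (collagenase 3, chr8:12782769-12782828, plus strand), Col10a1 (type X collagen of hypertrophic cartilage, chr20:39737476-39737535, plus strand) and Bglap (osteocalcin, chr2:176137319-176137378, minus strand) mark the mineralising end of cartilage and bone.
Mmp13: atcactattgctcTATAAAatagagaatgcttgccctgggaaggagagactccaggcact
Col10a1: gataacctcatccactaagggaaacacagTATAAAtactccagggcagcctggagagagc
Bglap: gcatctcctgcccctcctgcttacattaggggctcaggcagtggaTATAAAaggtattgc
TATAAA does not occur in the windows of Hbb (beta globin, the third most abundant gene, chr1:167663722-167663781, minus strand), Eef1a1 (a translation factor among the 20 most abundant, chr8:88225070-88225129, minus strand), Acan (aggrecan of cartilage, chr1:142390891-142390950, plus strand) and Hpx (hemopexin, high in 1 library, chr1:169352156-169352215, minus strand).
Hbb: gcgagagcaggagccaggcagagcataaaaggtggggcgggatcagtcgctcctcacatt
Eef1a1: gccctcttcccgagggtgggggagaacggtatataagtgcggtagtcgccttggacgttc
Acan: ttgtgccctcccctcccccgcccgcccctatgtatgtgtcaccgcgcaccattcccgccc
Hpx: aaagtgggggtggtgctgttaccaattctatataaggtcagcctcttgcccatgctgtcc

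The alpha globin windows were the same at 57 of 60 bases. The motif's first base lay 28 bases before the start in Hba-a1 and in Hba-a2, 29 in Acta1, 31 in Col10a1, 42 in S100a9, 47 in Mmp13 and 15 in Bglap. By list, TATAAA was in 5 of 9 haemoglobin promoters, 3 of 5 hypertrophic chondrocyte promoters, 6 of 27 skeletal muscle promoters and 1 of 12 cartilage matrix promoters. None of the 14 erythroid precursor or 11 B cell promoters held it. A match is a string of letters and not a measured binding site. Variants of TATAAA were not searched, so a window without a match may still hold a variant.

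Total counts of replicates 1 to 4 were 47570829, 49342607, 36988722 and 47992378, and 18948 to 19406 genes had a count above 0. An FPKM of at least 1 in all 4 libraries was reached by 13172 genes, which are the detected genes below, while 2304 genes were at 0 in all 4. Counts of 2 were commoner than counts of 3 in every library (376 against 228 in replicate 1). Counts of 4 were also commoner than counts of 3 or of 5 in every library (365 against 228 and 193 in replicate 1). Whether both reads of a fragment were tallied was not tested. Shares of counts are given with their SD over the 4 libraries, since counting error was far smaller: the cartilage share of replicate 1, for instance, was 0.581% with a 95% Wilson interval of 0.579% to 0.583%, which covers counting error only.

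Replicate 3 held the most genes that were high in 1 healthy library alone. It held 67 genes, 44 of them with a gene name, at an FPKM of at least 5 and at least 4 times that of each other healthy library, where replicates 1, 2 and 4 held 2, 2 and 8. Of the 6 genes of the hepatocyte list, Fgb and Alb were among the 67 and the other 4 were not. Hpx, the plasma haem carrier hemopexin, had FPKM values of 0.92, 0.80, 695.8 and 0.24 in replicates 1 to 4, and the retinol carrier Rbp4 had 11.9, 16.4, 388.5 and 15.3. Only replicate 3 was high for either gene. The fibrinogen chains Fgb and Fgg stood at 121.8 and 59.2 FPKM in replicate 3 and at no more than 0.29 and 0.08 in the others. The clotting protein genes F2 (prothrombin) and Serpinc1 (antithrombin) were at 32.2 and 20.6 FPKM in replicate 3, and Cps1, an enzyme of the urea cycle, was at 27.1. Albumin, the main plasma protein, was lower than these (Alb, 12.3 FPKM in replicate 3 and at most 0.13 elsewhere). Other defining liver genes were near 0 in replicate 3 as well, with Apoa1 at 0.40, Apoa2 at 0.09 and Ttr at 0 FPKM, and Serpina1 did not stand out (2.49, 3.35, 3.27 and 2.90). The 67 genes took 0.372% of the counts of replicate 3 and 0.0060% to 0.0065% of the others. The direction of this gap is set by how the genes were picked, and the shares give its size only. In the 12 libraries of the other groups Hpx lay between 0.10 and 4.82 FPKM and Fgg at 0. The source of these transcripts was not tested, and shares with and without replicate 3 are given below.

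**Figure D1:**
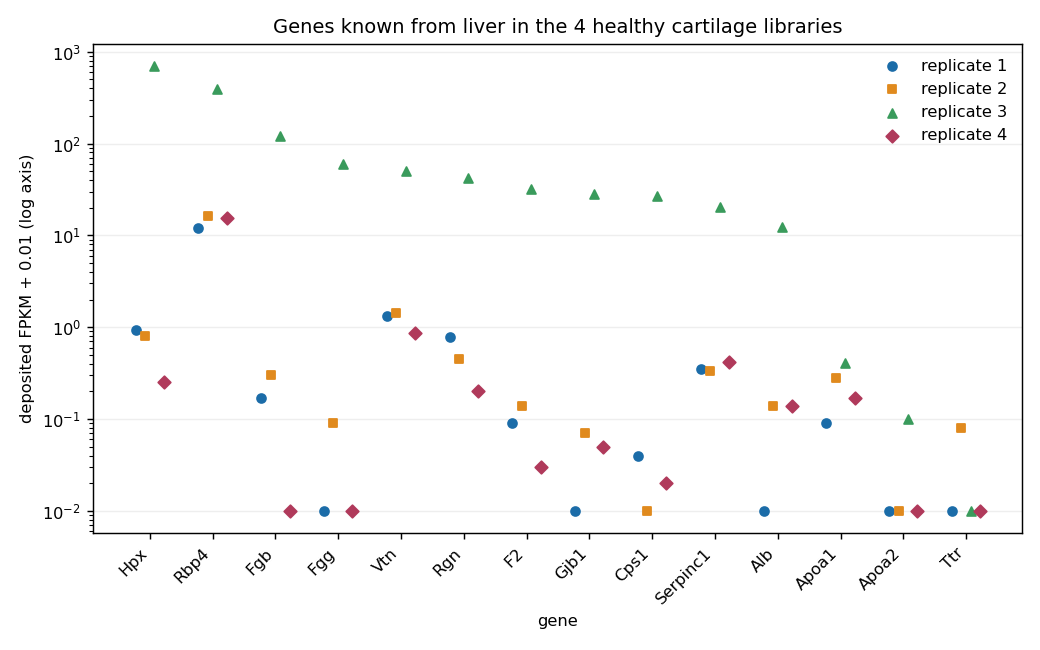
Deposited FPKM + 0.01 (vertical, log axis) of 14 genes known from liver in the 4 healthy libraries (points, 1 colour and shape per replicate; n = 4). From Hpx (695.8) to Alb (12.3) the replicate 3 point lies above the other 3, while Apoa1, Apoa2 and Ttr stay under 1 FPKM in every library.

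Red cell, mitochondrial and granulocyte transcripts, rather than cartilage transcripts, led the healthy libraries. Of the 20 genes with the highest mean FPKM, 9 came from the mitochondrial genome, 5 encoded haemoglobin chains, 3 belonged to the granulocyte list and 3 were general genes of all cells. Together they took 20.6% ± 2.56 of the counts and 43.0% ± 3.92 of the summed FPKM (SD, n = 4). The 100 most abundant genes took 29.3% ± 2.43 of the counts. Among these 100 were 25 ribosomal protein genes, 15 mitochondrial genes, 7 granulocyte, 6 haemoglobin, 5 osteoblast, 4 erythroid, 2 osteoclast, 2 muscle genes and 1 B cell gene, and 33 in no list. No gene of the cartilage lists was among them, and the highest, Col2a1, ranked 145 of 23552.

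Hba-a1, an alpha chain of adult haemoglobin, was the most abundant gene in each healthy library. Its FPKM values were 103384, 77051, 81113 and 108595, with a mean of 92535 ± 15767, and it took 5.87% ± 0.975 of all counts. Hba-a2, its neighbour, had 55960, 37554, 42593 and 58640 FPKM, and the beta chain gene Hbb had 55897, 44965, 41188 and 50368. The values of Hba-a2 and Hbb overlapped, so their order (48687 ± 10215 and 48105 ± 6417) is not beyond the spread. Next came LOC100134871, described as beta globin minor, at 10130 ± 1456 and Hbb-bs, of rank 10, at 5384 ± 712 FPKM. Replicates 1 and 4 were above replicates 2 and 3 for all 5 genes. Summed alpha chain FPKM was 2.23 ± 0.239 times summed beta chain FPKM. These copies are near-identical, and how reads were divided between them is not given in the sources used here, so ratios between copies are uncertain.

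The other haemoglobin genes were far lower. Hba-a3 had 1074, 602, 627 and 1795 FPKM, and the theta chain gene Hbq1b had 152 ± 13.1. Embryonic chains were low or at 0: Hbe1 had 1.12, 1.75, 1.01 and 1.9 FPKM, Hbz had 0.23 in replicate 2 alone and Hbe2 was at 0 in all 4. The adult genes thus carried nearly all of the haemoglobin counts.

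The mitochondrial genes of the top 20 encode subunits of the respiratory chain and ATP synthase. Mt-co1, a core subunit of cytochrome c oxidase, had 7620, 8143, 7075 and 10362 FPKM. Its partners Mt-co2 and Mt-co3 had means of 7349 ± 1427 and 7040 ± 1283. The ATP synthase genes Mt-atp8 and Mt-atp6 (8756 ± 1581 and 6588 ± 1249) overlap in the genome, so their separate values are uncertain. Mt-cyb, of complex III, was at 3570 ± 387, and the complex I genes Mt-nd1, Mt-nd4l and Mt-nd2 were at 2709 ± 491, 2295 ± 354 and 2146 ± 371 FPKM. Replicate 4 was the highest and replicate 3 the lowest library for each of these 9 genes.

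S100a9 and S100a8, which form the calcium-binding calprotectin of neutrophils, had means of 5087 ± 598 and 2672 ± 356 FPKM. S100a9 had 4501, 5728, 4662 and 5459 FPKM in replicates 1 to 4. Lyz2, lysozyme of granulocytes and macrophages, had 3411, 4689, 3884 and 2776. The general genes were Eef1a1, a translation elongation factor (2707 ± 296), Tmsb4x, which binds actin monomers (2691 ± 379), and Actb, cytoplasmic actin (2429 ± 145).

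**Figure D2:**
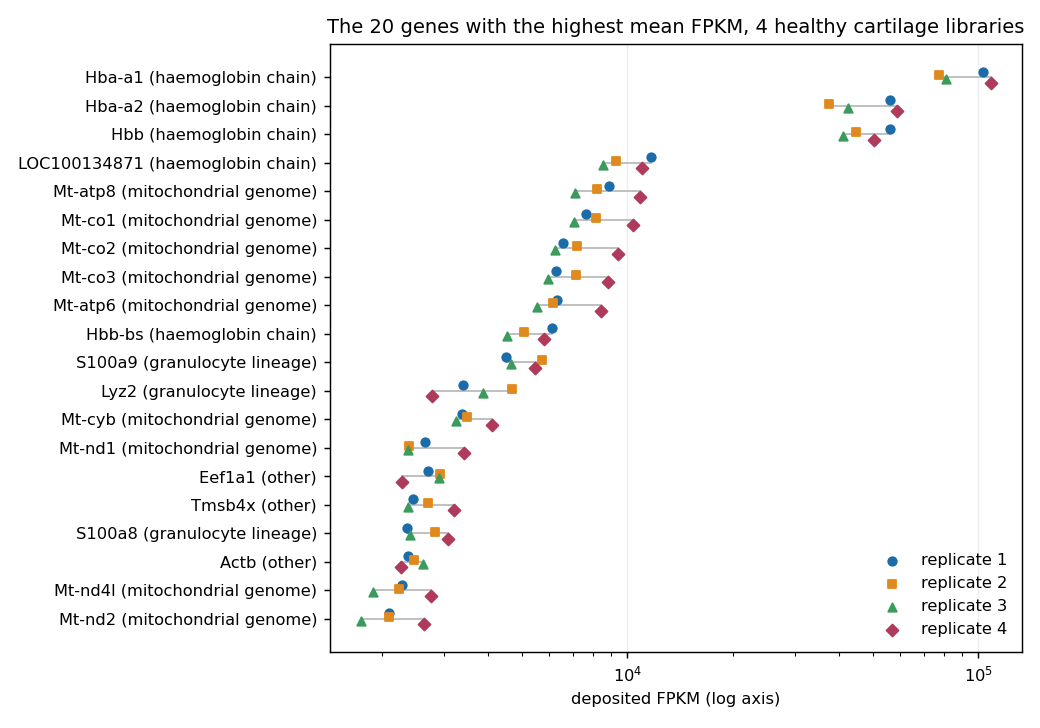
Deposited FPKM (horizontal, log axis) of the 20 genes with the highest mean in healthy cartilage, 1 point per library and a grey line over the range (n = 4), with each gene's list in brackets. The 4 points of Hba-a1 span 77051 to 108595, and the mitochondrial genes are highest in replicate 4.

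The label of knee cartilage was set against its markers. Col2a1, the main collagen of cartilage (ENSRNOG00000058560, rn6 chromosome 7, 139455242 to 139483997), had 306, 370, 536 and 227 FPKM. Acan, aggrecan (ENSRNOG00000028992, rn6 chromosome 1, 140762758 to 140824441), had 21.0, 24.2, 31.0 and 13.7. Both were highest in replicate 3 and lowest in replicate 4. Col1a1, the type I collagen chain of bone, tendon and skin (ENSRNOG00000003897, rn6 chromosome 10, 82745801 to 82762789), had 1151, 1308, 1954 and 1180. Bglap (ENSRNOG00000019607, rn6 chromosome 2, 187741770 to 187742747) had 310, 388, 419 and 314. Cartilage markers were thus present in every library, beside bone markers. Col1a1 was 4.04 ± 0.785 times Col2a1 on the FPKM scale, with 3.76, 3.53, 3.64 and 5.20 in the single libraries. Bglap was 1.06 ± 0.249 times Col2a1, with 1.01, 1.05, 0.781 and 1.38 in the single libraries, so it was the lower of the pair in replicate 3. It was 16.8 ± 4.20 times Acan. In bulk RNA such as this, fewer cells of a type and less RNA per cell cannot be told apart.

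Counts were then added up by tissue source, over lists of genes known from each tissue. Haemoglobin genes, standing for blood, took 16.1%, 12.2%, 12.3% and 16.1% of the counts in replicates 1 to 4 (14.2% ± 2.22). Marrow genes took 3.71%, 3.78%, 3.60% and 3.69% (3.69% ± 0.0761), bone genes 2.24%, 2.46%, 3.14% and 2.197% (2.51% ± 0.437), and muscle genes 1.37%, 1.21%, 0.969% and 1.17% (1.18% ± 0.164). Cartilage genes took the least with the full lists, at 0.581%, 0.606%, 0.762% and 0.488% (0.609% ± 0.114). With these lists the ranges of the 5 sources did not overlap, and their order was the same in all 4 libraries. The order of bone and cartilage rests on the lists. A set of genes that several tissues of the joint express, such as Col1a1, Col1a2, Sparc and Spp1, was then left out. Mmp13, also made by osteoblasts, and Prg4, also made by synovium, stayed in the cartilage list, so the order of bone and cartilage remains unsettled. Bone genes took 0.463%, 0.457%, 0.485% and 0.457% and cartilage genes 0.503%, 0.510%, 0.664% and 0.410%. Bone was then below cartilage in replicates 1 to 3 and above it in replicate 4, and muscle, at 1.08% ± 0.155, was above both in every library. Ttn, Myh1, Myh2 and Atp2a1 of the muscle list had no match in the table by symbol and are not in its share. Haemoglobin is also made by erythroid precursors, so the blood and marrow shares cannot be separated cleanly.

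The 5 sources together held 22.2% ± 1.92 of the counts, and with mitochondrial genes (5.07% ± 0.862) and ribosomal protein genes (2.94% ± 0.204) 30.2% ± 2.43. The remaining counts fell on the smaller lists given below and on genes in no list. Without replicate 3 the cartilage share was 0.558% ± 0.0622, bone 2.30% ± 0.143, marrow 3.73% ± 0.0474, blood 14.8% ± 2.25 and muscle 1.25% ± 0.105. On summed FPKM, where long genes weigh less, blood stood at 32.5% and cartilage at 0.246%, and marrow, bone and muscle at 4.20%, 1.30% and 0.845%.

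**Figure D3:**
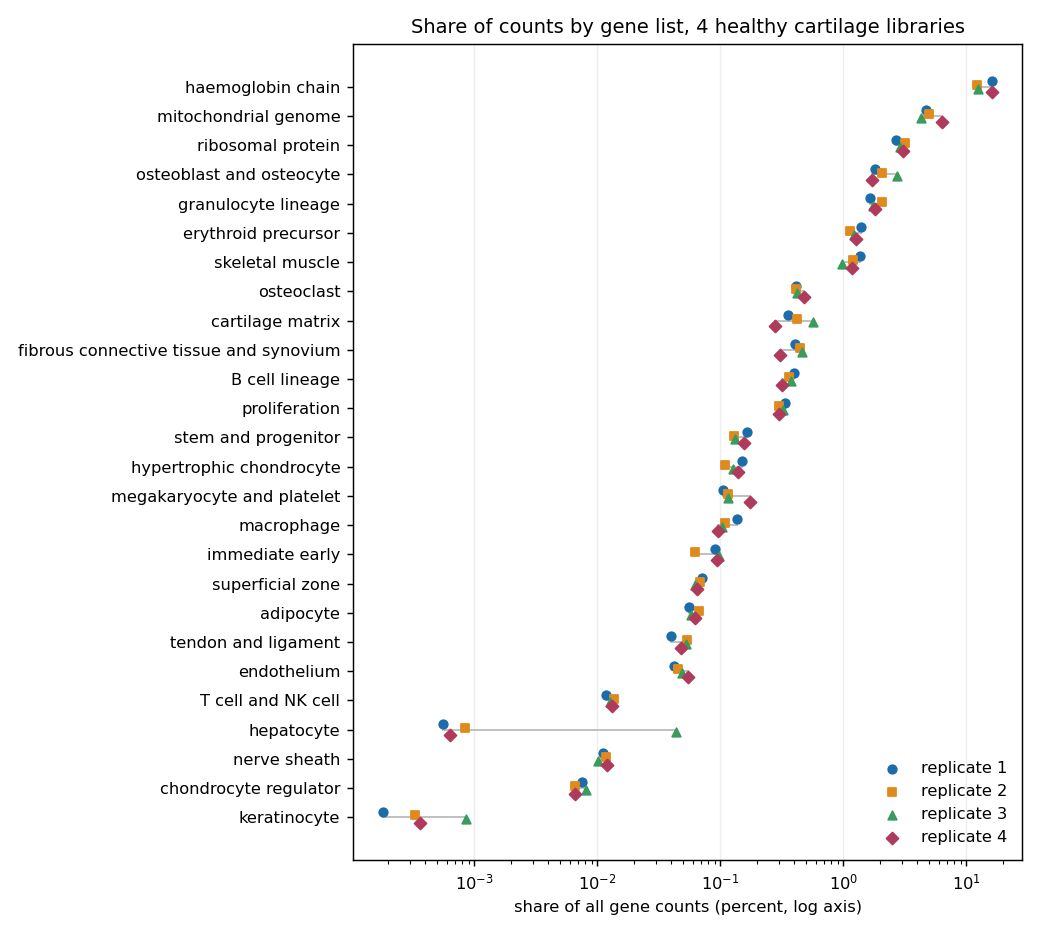
Share of all gene counts (horizontal, percent, log axis) taken by each of 24 gene lists, the mitochondrial genome and the ribosomal protein genes, 1 point per healthy library and a grey line over the range (n = 4). Haemoglobin leads at 12.2% to 16.1%, cartilage matrix lies at 0.277% to 0.566%, and the hepatocyte list is spread widest, from 0.0006% to 0.0439% in replicate 3.

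Within the cartilage lists, matrix genes took 0.404% ± 0.123 of the counts and 15 of 19 were detected. Col2a1 alone took 0.187%. Comp and Chad, which bind collagen fibrils, had mean FPKM values of 76.7 ± 15.0 and 74.3 ± 15.8, fibromodulin, Fmod, had 66.4 ± 11.3, and Col11a1, a collagen that nucleates type II fibrils, had 59.2 ± 19.2. Col11a2 stood at 39.6 ± 7.95. Matn1, a matrilin of growth and tracheal cartilage, had 0.37, 0.64, 0.14 and 0.13 FPKM, and Epyc, epiphycan, had 0.34 ± 0.0930. The matrix genes moved together across the libraries, read here and in the lists below on normalised counts. Replicate 3 was highest for 12 of the 15 detected genes and replicate 4 lowest for 14. Over all detected genes, replicates 1 to 4 were highest for 24.6%, 23.6%, 21.5% and 30.2% and lowest for 22.4%, 21.4%, 26.4% and 29.7%, against which such counts are to be read in every list. The median deviation of the matrix genes from their mean over the libraries was 0.42 in replicate 3 and -0.39 in replicate 4 (log2).

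The superficial zone list, for the layer that lines the joint cavity, took 0.0665% ± 0.0040. Its lubricant gene Prg4, also made by synovium, had 115, 99.2, 82.3 and 96.1 FPKM and was lowest where Col2a1 was highest. Clu, a chaperone of many tissues, had 88.5 ± 6.92, and Cilp and Cilp2, proteins of cartilage matrix, had 15.2 ± 1.903 and 10.1 ± 1.61. Regulators of chondrocyte fate were low, at 0.0072% of the counts. Sox9, the master transcription factor of cartilage, had 1.63, 1.93, 3.43 and 1.68 FPKM and was highest in replicate 3, as Col2a1 was. Its partners Sox6 and Sox5 had 9.38 ± 0.948 and 0.63 ± 0.134, the growth factor receptor gene Fgfr3 had 6.60 ± 1.03, and Nkx3-2, Barx1 and Gdf5 had means of 0.307, 0.265 and 0.107.

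Hypertrophic chondrocyte genes took 0.131% ± 0.0174, and the leading pair went apart. Mmp13, a collagenase also made by osteoblasts (rn6 chromosome 8, 5522739 to 5533018), had 400, 247, 279 and 402 FPKM. Col10a1, the collagen made by hypertrophic chondrocytes (rn6 chromosome 20, 41184287 to 41189633), had 67.7, 75.4, 105.5 and 12.9. Replicate 4 was the highest library for Mmp13 and the lowest for Col10a1, at 1440 counts against 7486, 8737 and 9120. The Mmp13 to Col10a1 ratio was 5.91, 3.28, 2.65 and 31.2. Pth1r, the receptor of parathyroid hormone, had 31.1 ± 1.86, and Ihh, the hedgehog signal of prehypertrophic cells, had 1.34 ± 0.441. Panx3, Alpk3 and Scin had means of 8.10 ± 2.24, 8.32 ± 0.847 and 4.07 ± 0.467.

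Osteoblast and osteocyte genes took 2.08% ± 0.452 of the counts, of which Col1a1 was 0.931%. Sparc, a matrix protein of bone and many other tissues, had a mean FPKM of 1501 ± 361, Spp1 (osteopontin) 783 ± 81.7, Col1a2 742 ± 188 and Ibsp (bone sialoprotein) 624 ± 75.1. Osteocyte genes were lower. Dmp1, a mineralisation protein of osteocytes, had 129 ± 14.7 FPKM, and Sost, which encodes the Wnt inhibitor sclerostin, had 50.1, 40.9, 53.3 and 19.0. Replicate 4 was lowest for 11 of 19 detected genes of this list, Sost among them, and replicate 3 highest for 9.

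Osteoclast genes took 0.416%, 0.411%, 0.417% and 0.476%, so that replicate 4 lay above the rest. Car2, the carbonic anhydrase that supplies acid and is also made by red cells, had 936 ± 70.1 FPKM. Ctsk, the collagen-cutting cathepsin of osteoclasts, had 573, 630, 616 and 855, and Acp5, the tartrate-resistant phosphatase, had 488 ± 24.1. Itgb3, Tcirg1 and Atp6v0d2, for adhesion and proton pumping, had 92.9 ± 12.4, 40.8 ± 4.58 and 21.2 ± 2.56. Replicate 4 was highest for 9 of the 13 detected osteoclast genes and for 2 of the 19 osteoblast and osteocyte genes.

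Marrow was led by the granulocyte lineage, at 1.81% ± 0.171 of the counts. Behind S100a9, Lyz2 and S100a8 came the defensin genes Np4 (1511 ± 210 FPKM) and Defa5 (1462 ± 222) and the neutrophilic granule protein gene Ngp (885 ± 161). Mpo, myeloperoxidase of early granules, had 413 ± 23.1. Ltf, lactoferrin of late granules, had 0.04, 0.05, 0.05 and 0 FPKM, although other late granule genes such as Lcn2 (345 ± 14.4) and Camp (451 ± 75.8) were abundant. Eosinophil granule genes, named after their values were seen, varied more. Prg2, the major basic protein, had 1414, 1792, 1102 and 557 FPKM, and the eosinophil peroxidase gene Epx had 311, 324, 245 and 98.4. Both were lowest in replicate 4, as were 2 of the 21 detected genes of the granulocyte list.

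Erythroid precursor genes took 1.25% ± 0.109 of the counts, and all 19 were detected. Ahsp, the chaperone of alpha chains, had 932, 785, 813 and 968 FPKM. Slc4a1 (band 3), Alas2 (first enzyme of haem synthesis), Car1, Hemgn and Slc25a37 had means of 591 ± 69.0, 580 ± 80.2, 569 ± 31.5, 331 ± 37.3 and 212 ± 22.9. Replicate 2 was lowest for all 19 on normalised counts, against 21.4% of all detected genes, and replicate 1 highest for 14. Precursor transcripts were therefore present in every library.

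B cell genes took 0.363% ± 0.0353. Jchain, the joining chain of secreted antibody, had 1638, 1124, 1129 and 1101 FPKM, and Ighm, the IgM heavy chain, had 268 ± 21.8. Genes of developing B cells were present. Vpreb3 and the surrogate light chain gene Igll1 had 76.2, 120.5, 67.8 and 38.0, and 33.5, 42.6, 30.8 and 16.9. The receptor genes Cd79a and Cd79b had 84.2 ± 25.5 and 60.1 ± 16.3. Fcrla had 40.0 ± 15.4. Replicate 2 was highest for 12 of 16 and replicate 4 lowest for 13, with median deviations of 0.37 and -0.69 (log2).

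Megakaryocyte and platelet genes went the other way in replicate 4. They took 0.105%, 0.116%, 0.115% and 0.173% of the counts, and replicate 4 was highest for all 11, against 30.2% of all detected genes. The platelet chemokine genes Pf4 and Ppbp had 294, 355, 325 and 535, and 278, 312, 293 and 412 FPKM. The fibrinogen receptor chain Itga2b had 89.4, 93.7, 92.6 and 148.8, and Tubb1, Treml1 and Gp1ba had means of 48.4 ± 10.9, 46.8 ± 12.6 and 30.2 ± 8.00. Replicate 4 was apart from 3 libraries that lay close together. Stem and progenitor genes took 0.145% ± 0.0170, most of it from Cxcl12 (212 ± 28.9 FPKM), a chemokine of marrow stroma, while Cd34, Gata2, Kit, Meis1 and Flt3 had 14.4 ± 1.10, 8.30 ± 1.34, 6.58 ± 0.220, 4.88 ± 1.06 and 3.56 ± 0.403.

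Skeletal muscle genes took more counts than cartilage genes in each library. Acta1 had 1388, 1176, 1015 and 1216 FPKM, and creatine kinase, Ckm, had 772, 654, 544 and 678. Mylpf, Tnnt3, Myl1 and Tnnc2, of fast fibres, had means of 464 ± 87.1, 403 ± 97.3, 357 ± 59.9 and 341 ± 62.1. Replicate 3 was lowest for 23 of 30 and replicate 1 highest for 18. Fast and slow fibre genes differed in replicate 1. The fast myosin gene Myh4 was highest there, at 167, 126, 101 and 120 FPKM in replicates 1 to 4. The slow myosin gene Myh7 was lowest there, at 31.0, 41.6, 42.6 and 43.3, and so was the slow troponin gene Tnnt1, at 39.3, 65.4, 59.8 and 78.9. The Myh4 to Myh7 ratio was 5.38, 3.02, 2.37 and 2.78.

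Other tissues of the joint were smaller. Fibrous and synovial genes took 0.404% ± 0.0714, as much as cartilage matrix, with the small proteoglycan genes Dcn and Lum at 254 ± 60.3 and 193 ± 22.3 FPKM and Col3a1 at 188 ± 46.5. Col6a1, Col5a2 and Postn had 77.7 ± 9.07, 65.9 ± 15.2 and 63.5 ± 13.8. Replicate 4 was lowest for 13 of 17. Macrophage genes took 0.111% ± 0.0178, and replicate 1 was highest for 8 of 9, with the complement gene C1qa at 157, 107, 92.7 and 105, and C1qc, Cd68, C1qb and Csf1r at 114 ± 28.3, 96.3 ± 7.38, 74.4 ± 13.8 and 57.1 ± 3.33. The scavenger receptor gene Marco was at 0 in all 4, while Cd163 had 34.3 ± 8.14.

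Adipocyte genes took 0.0609% ± 0.0050 (Fabp4, a fatty acid carrier, 265 ± 44.7 FPKM), tendon genes 0.0485% ± 0.0063 (Thbs4 48.7 ± 5.64) and endothelial genes 0.0477% ± 0.0051 (Vwf 19.3 ± 4.51). T cell and NK cell genes took 0.0128% (Nkg7, a granule protein, 84.4 ± 8.74) and nerve sheath genes 0.0113% (Pmp22 18.7 ± 2.55). Keratinocyte genes took 0.0004%, and the skin keratins Krt5 and Krt14 were at 0 in all 4. Hepatocyte genes took 0.0006%, 0.0008%, 0.0439% and 0.0006%. Vessel and fat genes were thus present at low level, and skin markers were at or near 0.

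Genes of cell state were read in the same way. Proliferation genes took 0.315% ± 0.0201 of the counts, with Mki67 at 124 ± 10.8 and Top2a at 88.0 ± 7.97 FPKM, Rrm2 at 76.2 ± 8.28, Tpx2 at 59.0 ± 4.05, Ccna2 at 53.5 ± 5.53 and Birc5 at 50.2 ± 3.02. Immediate early genes, which many cells switch on within minutes of stimulation or handling, took 0.0860% ± 0.0158. Fos, a transcription factor of this class, had 34.0, 7.96, 35.2 and 28.5 FPKM, and Egr1 had 33.2, 14.1, 32.1 and 33.7. Dusp1, Junb, Zfp36, Ier2 and Btg2 had means of 47.6 ± 12.5, 32.9 ± 9.52, 40.4 ± 5.37, 30.5 ± 5.91 and 73.4 ± 2.98. Replicate 2 was lowest for 13 of 14, with a median deviation of -0.56 (log2).

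Mitochondrial transcripts also moved as a block. Their share was 4.72%, 4.95%, 4.31% and 6.30%. Replicate 4 was highest for all 33 detected genes and replicate 3 lowest for 32. Ribosomal protein genes took 2.68%, 3.14%, 2.88% and 3.04%, and replicate 4 was highest for 61 of 97. Whether these shifts and those of the marrow, cartilage and muscle lists share a source was not tested.

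**Figure D4:**
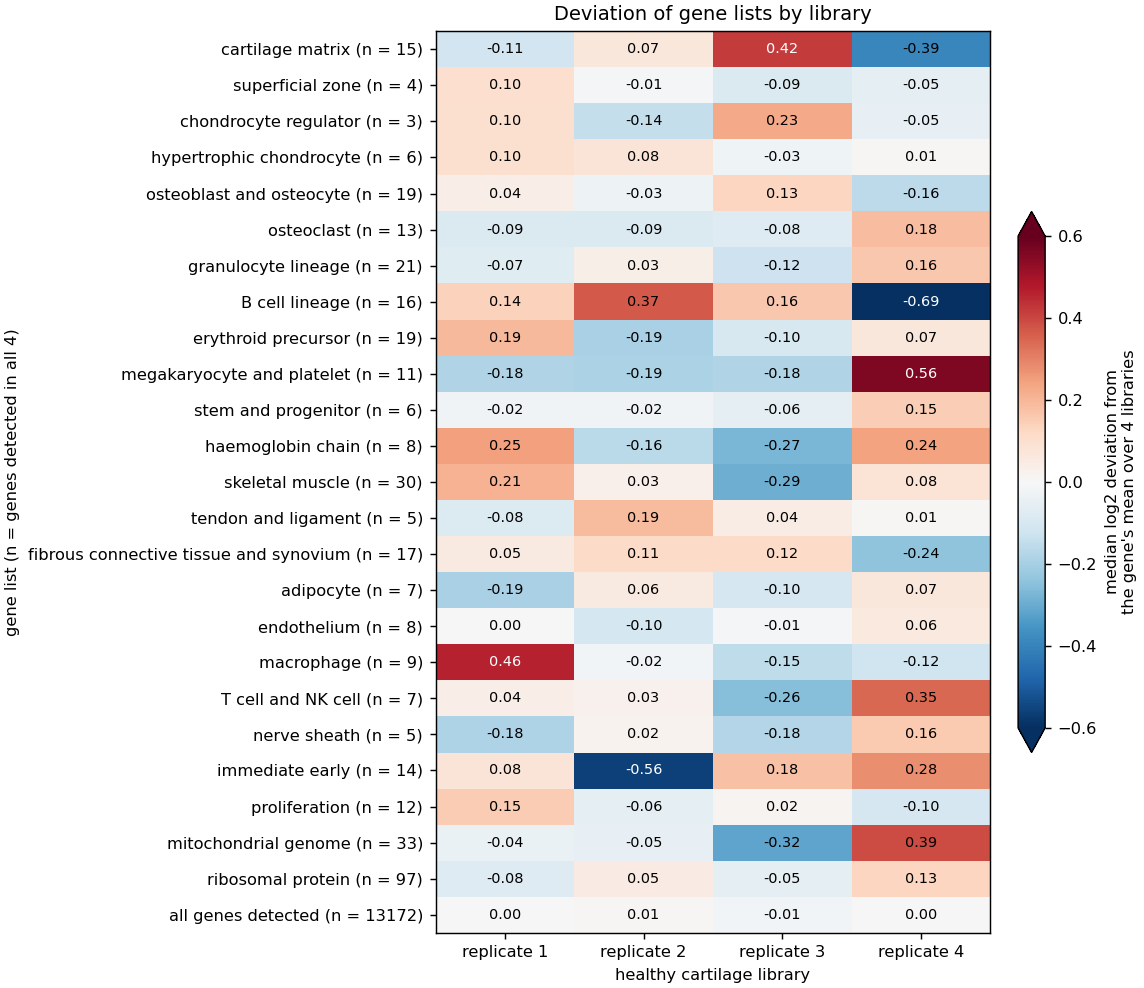
Median over the detected genes of each list of the log2 deviation from the gene's mean over the 4 healthy libraries (colour and printed value, normalised CPM), with 1 column per library and the number of genes in brackets. Cartilage matrix goes from 0.42 in replicate 3 to -0.39 in replicate 4, where B cell genes are at -0.69 and platelet genes at 0.56, while all detected genes lie near 0.

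The spread between replicates was measured as the coefficient of variation (CV, the SD divided by the mean over the 4 libraries) of CPM (counts scaled to library size) after TMM, a method that balances library composition. Over the 13172 detected genes the median CV was 0.103, the middle range (25th to 75th percentile) was 0.0664 to 0.164 and the 95th percentile was 0.332. Counting error alone would give a median CV of 0.0292, and more if both reads of a fragment were tallied. A CV under 0.1 was found for 6293 genes (47.8%) and above 0.5 for 219 (1.66%). The median CV was 0.148 at mean FPKM values from 1 to 5, 0.0941 from 5 to 20, 0.0826 from 20 to 100 and 0.103 above 100, so it did not keep falling with abundance. edgeR's common dispersion over the 4 libraries was equivalent to a CV of 0.161 beyond counting.

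Most lists stood above the median CV over all genes. The median CV was 0.293 for B cell, 0.292 for platelet, 0.286 for immediate early, 0.245 for cartilage matrix, 0.235 for macrophage, 0.221 for mitochondrial, 0.201 for muscle and 0.193 for haemoglobin genes. It was 0.186 for osteoblast and osteocyte, 0.138 for erythroid, 0.131 for granulocyte and 0.113 for osteoclast genes. Ribosomal protein (0.103), proliferation (0.0878) and endothelial genes (0.0785) lay at or below the median over all genes. Among the markers, Bglap varied least (CV 0.116), and Col1a1, Acan and Col2a1 had 0.239, 0.290 and 0.334.

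**Figure D5:**
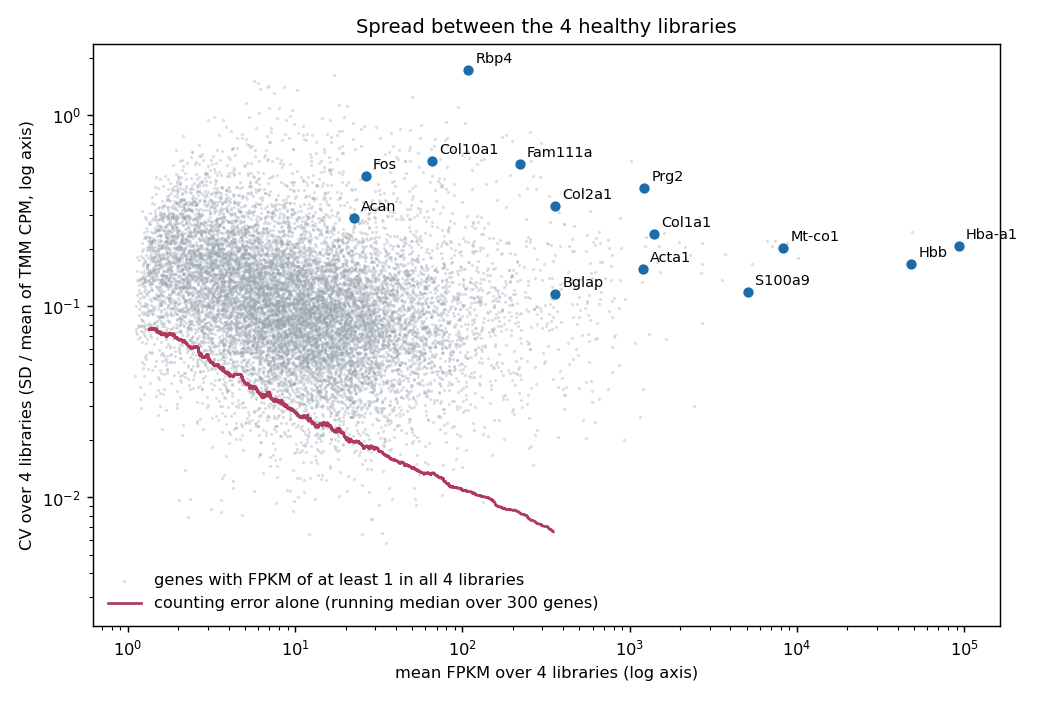
CV over the 4 healthy libraries (vertical, log axis) against mean FPKM (horizontal, log axis), 1 grey point per detected gene (13172), with named genes in blue and the CV of counting error alone as a red running median over 300 genes. Most genes lie above the red line, with Rbp4 and Col10a1 (0.574) far above and Bglap (0.116) close to the median of 0.103.

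Pairs of libraries differed by a median of 0.135 (replicates 2 and 3) to 0.185 (replicates 3 and 4) on the log2 scale. Replicate 4 lay farthest from the mean of the others (median 0.160 against 0.122 to 0.125). Rank correlation across the detected genes, which share library and length and are not independent, was 0.971 to 0.981. Between 1.69% and 2.59% of genes differed more than 2-fold within a pair.

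The genes with the smallest CV among named genes with a mean FPKM of at least 5 were Map2k1, a kinase of the ERK pathway (24.6, 26.1, 26.1 and 24.5 FPKM; CV 0.003), Arl8b (CV 0.006), Kdm2a, Mzt2b, Pes1 and Ncbp1 (CV up to 0.008). These CVs are of normalised CPM, and the FPKM values printed for Map2k1 spread more. The CVs are low in part because the genes were picked as the lowest of many, each from 4 values. That of Mzt2b (0.0064) lay below the CV of 0.036 that counting error alone would give. The 12 genes with the largest CV were all among the replicate 3 genes described above: Fgg, Cps1, Hpx, Gjb1, Fgb, F2, Rgn, Serpinc1, Vtn, Rbp4, Stard10 and Nnmt. Their CV values ran from 1.32 to 2.00, and 2.00 is the most that 4 values can give. Fgg, Cps1, Hpx and Fgb had at most 0.08, 0.03, 0.92 and 0.29 FPKM in the other healthy libraries. These 4 passed the mean FPKM filter only through replicate 3, and most others of the 12 may have done so too. Rbp4 was above that filter in the other healthy libraries as well. The place of the 12 here therefore restates that they were high in replicate 3.

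Of the 9491 genes with a mean FPKM of at least 5, 189 (1.99%) had a CV above 0.5, and 136 of these (72.0%) carried a clone or locus name in place of a gene name, against 10.5% of all 9491. By the annotation terms in the deposited table, 31 of 134 genes with an immunoglobulin term (23.1%) were in this group. On chromosome 6, 39 of the 94 unnamed genes at that mean FPKM had such a CV, against 136 of all 992 unnamed genes. A few single genes, chosen after their values were seen, divided the libraries. LOC103690108, described as a class I histocompatibility antigen (rn6 chromosome 20, 3791407 to 3794027), had 3.40, 177.7, 190.6 and 3.04 FPKM, so replicates 1 and 4 were low and replicates 2 and 3 high. Pirb, a paired immunoglobulin-like receptor, had 3.03, 14.5, 13.5 and 18.7, and Fam111a (rn6 chromosome 1, 229003961 to 229019527) had 280, 282, 281 and 34.4. Gp1bb, a platelet receptor chain, had 1.95, 4.81, 19.8 and 31.6, unlike its partner Gp1ba, which ran from 24.8 to 41.8. Class I and immunoglobulin-like receptor genes lie in families of near copies, so reads may have been divided between members, which was not tested.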

How the data were processed

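All values came from 1 table. Per the file headers it holds, for each gene and library, a count and an FPKM value. The deposited counts are whole numbers, not normalised by the authors. The deposited FPKM values were scaled to gene length and fragment number. Per the submitters' processing notes, the tools were HISAT2 2.2.1, StringTie 2.1.6, cutadapt 1.9, edgeR and DESeq2, with build rn6 and no stated roles. The counting tool, annotation version and strand setting are not given in the sources used here, so overlapping genes are uncertain.

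Members and gene lists were chosen with earlier results of these data known. Of 24 lists, genes were matched by symbol, or by description for Col1a2 and Col6a3, and 21 of the 310 list genes, among them Ttn, Pecam1 and Lect1, had no match and are not in the sums. Detected means an FPKM of at least 1 in all 4 libraries. CVs used edgeR 4.0.16 TMM scaling in R 4.3.3, and sums used python 3.11.15. The CV step was tested on simulated data. Text names the 20 most abundant genes, the 4 markers, up to 6 members a list by mean FPKM and any at 0 in all 4, and the 12 largest and 6 smallest CVs at a mean FPKM of at least 5. Other names illustrate a list's contrasts and were chosen after their values were seen. The alternatives were other denominators, units, lists, scalings and filters, and leaving out each replicate. The other 12 libraries entered only for the genes high in replicate 3. Promoters were matched by Entrez gene identifier (13508 of 23552 genes). Fragments were amplified and carried no molecular identifiers.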

Additional observations from a re-analysis of the deposited data

Results flagged for a closer look

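Of 31 shares and 171 genes of the 4 healthy libraries that were examined, 3 shares and 23 genes had 1 library whose gap to the nearest of the others was above Dixon's 95% critical value, as a share of the whole range. Chance marks about 1 in 20. Of the 23 genes, 15 had been named for their large CV or belong to the hepatocyte list, so their number is set by the choice of genes. Among the other 154 genes examined, 8 (5.19%) were marked, close to what chance gives. Replicate 3 was high for most of the 15. Its hepatocyte share was 0.0439%, and its FPKM was 695.8 for Hpx, 388.5 for Rbp4, 121.8 for Fgb, 59.4 for Stard10, 59.2 for Fgg, 50.2 for Vtn and 42.3 for Rgn. It was 32.2 for F2, 28.5 for Gjb1, 27.1 for Cps1, 22.5 for Nnmt, 20.6 for Serpinc1, 12.3 for Alb and 0.09 for Apoa2. The 8 genes, here and below, are named because the rule marked them, and chance alone would mark about as many. The rule takes a gap as a share of the range, however small the range is. Of cartilage genes, Sox9 (3.43) and Pth1r (33.9) were marked as high in replicate 3.

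Replicate 4 was marked for its osteoclast share (0.476%), its platelet share (0.173%), the platelet genes Itga2b (148.8 FPKM) and Treml1 (65.6), and a low value of Sox5 (0.43). Replicate 2 was low for the immediate early gene Egr1 (14.1) and the only library above 0 for Ttr (0.07). Replicate 1 was high for Jchain (1638) and low for the nerve sheath gene Prx (1.0). Genes of 1 list move together, so these are not separate findings.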

How the results depend on the processing

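No paired analysis was possible because the values describe 1 group and come from no test. Of 76 alternative values, 61 stayed within a set margin and 15 did not. The margin was 1 SD between replicates for shares and 1.5 times for numbers of genes. For the median CV it was the SD of the medians found on leaving out each replicate. Leaving out 1 of 4 libraries cannot move a mean share by 1 SD, so those values could only stay within the margin. The number 61 is therefore no measure of how stable the shares are. On summed FPKM the shares were 0.246% for cartilage, 1.30% for bone, 4.20% for marrow, 32.5% for blood and 0.845% for muscle, and 43.0% for the 20 most abundant genes. Without haemoglobin in the denominator, marrow took 4.31% and muscle 1.38%. Without a set of genes that several tissues express, bone took 0.466%, marrow 2.74%, cartilage 0.522% and muscle 1.08%. Bone and not cartilage was then the smallest source, but Mmp13 and Prg4 stayed in the cartilage list, so this order is not settled. Most of the bone share rests on genes such as Col1a1 and Sparc. The median CV was 0.0871 for an FPKM of at least 5 and 0.131 for a count above 0 in all 4, and 93 and 1244 genes then had a CV above 0.5.

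Leaving out each replicate gave 0.558% to 0.650% for cartilage, 2.30% to 2.61% for bone, 3.67% to 3.73% for marrow, 13.6% to 14.9% for blood and 1.12% to 1.25% for muscle. The median CV was 0.0867 (without replicate 4) to 0.103, and the number of genes with a CV above 0.5 was 207 to 247. The same 20 genes led each time. With 4 libraries, a CV is itself imprecise.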
